A study of Solanum lycopersicum with 8 samples.

Results

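The genes described here are the CBF and *ICE1* cold regulators of tomato, 5 of the 34688 genes that the deposited table lists. They were taken from the table by gene identifier, with earlier results of these data known, and comprise *SlCBF1* (Solyc03g026280), *SlCBF2* (Solyc03g124110), *SlCBF3* (Solyc03g026270) and 2 genes named *SlICE1*, Solyc03g118310 on chromosome 3 and Solyc06g068870 on chromosome 6. The identifiers place *SlCBF1* and *SlCBF3* side by side on chromosome 3, and *SlCBF2* elsewhere on the same chromosome. The expression data came from entire wild-type (WT) plants of the cultivar Micro-Tom, harvested as 10-day-old seedlings grown at 25 °C. Torin2, a chemical inhibitor of the TOR kinase, was given at 5 μM for 2 h to 4 biological replicates, and 4 mock replicates received water with 0.1% DMSO, a solvent. The labels give no DMSO content for the Torin2 samples. The RNA was read as 8 RNA-seq libraries, and no library came from cold-treated seedlings, so that every value below was measured at growth temperature.

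In *Arabidopsis*, ICE1 is a basic helix-loop-helix transcription factor that binds the promoters of CBF genes and is controlled to a large part at the protein level, by phosphorylation and ubiquitination. The CBF proteins belong to the AP2/ERF family, bind the C-repeat element in the promoters of cold-responsive genes, and are known for a rapid and short-lived rise of their transcripts in the cold. TOR is a protein kinase that promotes growth when nutrients and energy are sufficient.

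*SlCBF1* is the gene among these 5 for which the study designed RT-qPCR primers. The pair is shown because it marks the transcript on which the comparison turns, and no letter is set in capitals because no part of a primer is singled out. The forward primer is 21 bases long with a GC content of 52.4%, and the reverse primer is 22 bases long with 36.4%.
SlCBF1 forward primer, 5′ to 3′: ggaggcgatctttttcatgcc
SlCBF1 reverse primer, 5′ to 3′: tccataaagttatcatgtaggc

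Expression was deposited as FPKM, the fragments of a gene scaled by its length and by the depth of the library, so that levels can be compared between genes. The libraries held between 36989257 and 39868131 fragments, and the whole fragments behind each FPKM value were recovered from the table. A count below the floor of 3 fragments was taken as not detected. Within both conditions the libraries fell into 2 sets, separated by the first component of their deviations from the condition means. The first set (mock 1 and 2, Torin2 2 and 4) gave 5.62% to 6.90% of its fragments to the 10 most abundant genes, and the second set (mock 3 and 4, Torin2 1 and 3) gave 8.56% to 12.0%. The sets were defined from these data and are not groups of the study, and each holds 2 libraries of each condition. Green and root tissue were both present, since a Rubisco small chain gene (Solyc02g085950) was at 633 FPKM or more and *NRT3.2*, a high-affinity nitrate transporter (Solyc03g112100), at 55.6 FPKM or more in every library.

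The 5 genes spanned a wide range of levels. The *SlICE1* gene on chromosome 6 was by far the most abundant, at 29.1 ± 6.23 FPKM in mock and 35.2 ± 14.4 FPKM in Torin2-treated seedlings (SD, n = 4 each), and 81.3% of the genes tested had a lower mean level. *SlCBF1* and the *SlICE1* gene on chromosome 3 followed, above 40.6% and 34.6% of the genes tested. These ranks use the mean over all 8 libraries, and in mock alone the 2 means stood in the other order, at 2.73 and 3.27 FPKM. The ranges of these 2 genes overlapped in both conditions, so that these neighbours in the order did not differ beyond their spread. *SlCBF3* and *SlCBF2* came last, above 5.80% and 0.537% of the genes tested, and their ranges overlapped as well. The order from the *SlICE1* gene on chromosome 6 down to *SlCBF1*, and from *SlCBF1* down to *SlCBF3* and *SlCBF2*, held in each of the 8 libraries.

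**Figure D1:**
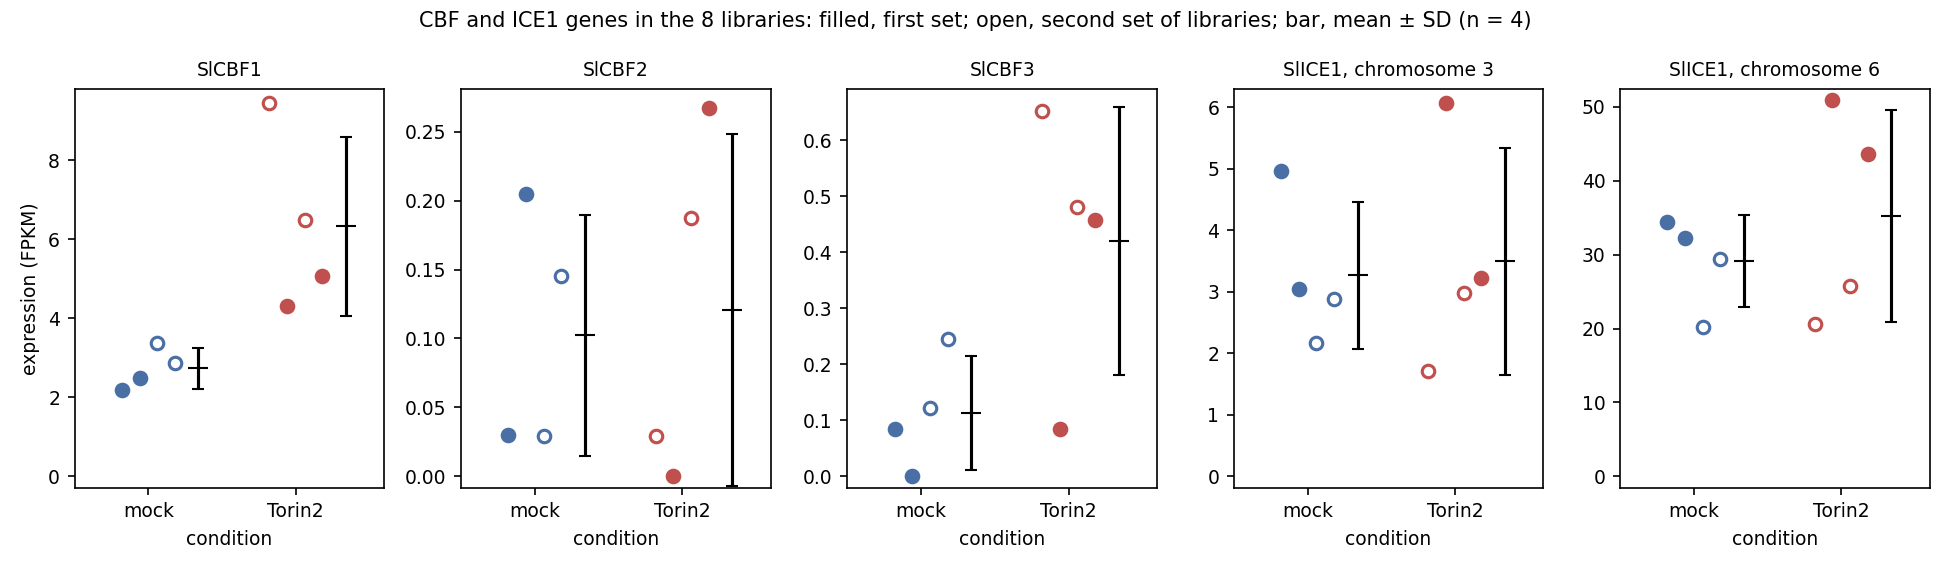
Expression (FPKM, linear axes that differ between panels) of the 5 genes in each mock and Torin2 library, with filled points for the first and open points for the second set of libraries, and the mean ± SD beside them (n = 4). For *SlCBF1* the 4 Torin2 libraries (4.32 to 9.45 FPKM) lie above the 4 mock libraries (2.18 to 3.38 FPKM), and for the other 4 genes the conditions overlap.

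*SlCBF1*, the best known cold-inducible CBF gene of tomato, was the member that rose under Torin2. It was at 2.18, 2.49, 3.38 and 2.87 FPKM in mock replicates 1 to 4 and at 9.45, 4.32, 6.48 and 5.08 FPKM in Torin2 replicates 1 to 4. The lowest Torin2 library thus stood above the highest mock library, and Torin2 replicate 1 was the highest of the 4 Torin2 libraries. The log2 fold change was 1.14 ± 0.29 (SE), which is a 2.20-fold rise with a 95% interval of 1.43 to 3.38-fold (adjusted p = 0.0196, limma with Benjamini-Hochberg adjustment over the 22330 genes tested). In whole seedlings, more cells that express a gene and more of its RNA per cell cannot be told apart, nor can fewer cells and less RNA. Among the 5 members, *SlCBF1* was the single gene past both cut-offs, which are an adjusted p below 0.05 and a log2 fold change beyond 1 in either direction. Of all genes tested, 8.32% passed both cut-offs in either direction, 5.31% passed them as rises, and 11.4% had all 4 Torin2 libraries above all 4 mock libraries.

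The rise of *SlCBF1* was present in each set of libraries. In the first set its mean went from 2.33 FPKM in mock to 4.70 FPKM in Torin2, a log2 difference of 0.98, and in the second set from 3.13 to 7.96 FPKM, a log2 difference of 1.30. Mock and Torin2 libraries did not overlap within either set, and with 2 libraries of each condition in a set no test was run. The set itself moved the gene less than the treatment did, with a level 0.57 higher on the log2 scale in the second set. The call lay near its thresholds. It was lost without mock replicate 1 (log2 fold change 1.04, adjusted p = 0.0536), mock replicate 2 (1.10, adjusted p = 0.0522) or mock replicate 4 (1.17, adjusted p = 0.0561). In these refits the fold change stayed near 1.14 and only the adjusted p moved past 0.05. Without Torin2 replicate 1 the fold change itself fell to 0.93, below the cut-off. The call was also lost after median-of-ratios scaling (0.98, adjusted p = 0.0730) and quantile normalization (0.91, adjusted p = 0.112). Over all refits with limma the adjusted p ran from 0.000678 to 0.112. The lowest came with the set of the library as a covariate. That set was defined from these same values, so that its p tends to be too small. The next lowest was 0.00849, with the length trend removed.

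**Figure D2:**
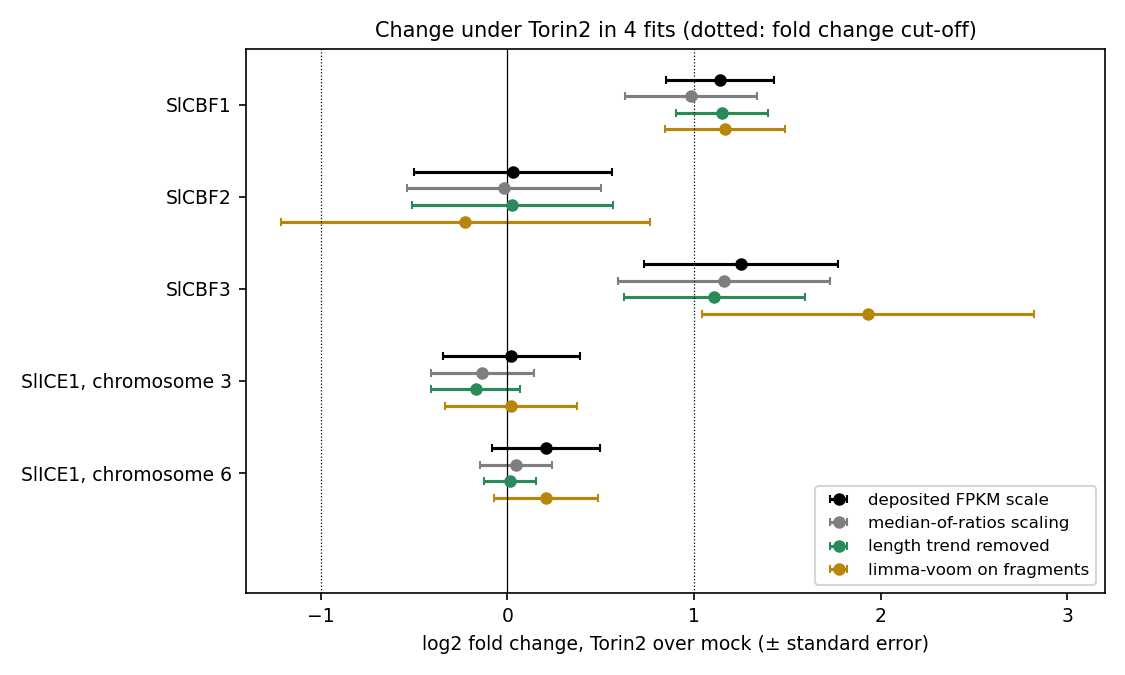
Log2 fold change of Torin2 over mock (x axis, ± standard error, 4 libraries per condition) for the 5 genes in 4 fits, with dotted lines at the fold change cut-off of 1. *SlCBF1* stays between 0.98 and 1.16, *SlCBF3* moves from 1.11 to 1.93 with wide errors, and *SlCBF2* and both *SlICE1* genes lie between -0.22 and 0.21.

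*SlCBF3*, the neighbour of *SlCBF1*, was rare and had a higher mean under Torin2, without passing the test. It gave 2, 0, 3 and 6 fragments in mock replicates 1 to 4 and 16, 2, 11 and 11 fragments in Torin2 replicates 1 to 4, over a gene length of 618 bp. On the FPKM scale these were 0.0843, 0, 0.122 and 0.245 in mock and 0.653, 0.0847, 0.481 and 0.458 in Torin2. Torin2 replicates 1, 3 and 4 were above every mock library, whereas Torin2 replicate 2 lay within the mock range, and 3 libraries were below the floor of 3 fragments. The summed fragments were 11 in mock and 40 in Torin2, a ratio of 3.72 after allowing for depth, with an interval of 1.87 to 8.04 that covers counting error only.

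The log2 fold change of *SlCBF3* was 1.25 ± 0.52 (SE), with a 95% interval of 0.14 to 2.36, and missed the threshold (adjusted p = 0.125, limma with Benjamini-Hochberg adjustment). It was similar in the first set (1.24) and the second set (1.26) of libraries, although the level itself was 1.03 higher on the log2 scale in the second set. The test passed without Torin2 replicate 2 (1.69, adjusted p = 0.0351) and with the set of the library as a covariate (1.25, adjusted p = 0.0431). The set was defined from these same values, so that a p with it as a covariate tends to be too small and carries no weight. Over all refits with limma the adjusted p ran from 0.0351 to 0.280. At so few fragments the fold change follows the pseudocount, from 0.34 with 1 FPKM to 2.21 with 0.01 FPKM.

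*SlCBF2* was the rarest of the 5 genes and showed no detectable difference. It gave 1, 7, 1 and 5 fragments in mock replicates 1 to 4 and 1, 0, 6 and 9 fragments in Torin2 replicates 1 to 4, over a gene length of 867 bp. This corresponds to 0.0301, 0.205, 0.0289 and 0.146 FPKM in mock and to 0.0291, 0, 0.187 and 0.267 FPKM in Torin2. High and low libraries occurred in both conditions, and 2 libraries of each condition were below the floor of 3 fragments. The totals were 14 fragments in mock and 16 in Torin2, a ratio of 1.17 after allowing for depth (interval 0.535 to 2.59, counting error only). The log2 fold change was 0.03 ± 0.53 (SE, adjusted p = 0.979, limma with Benjamini-Hochberg adjustment), and its 95% interval of -1.10 to 1.16 does not exclude a rise as large as that of *SlCBF1*.

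**Figure D3:**
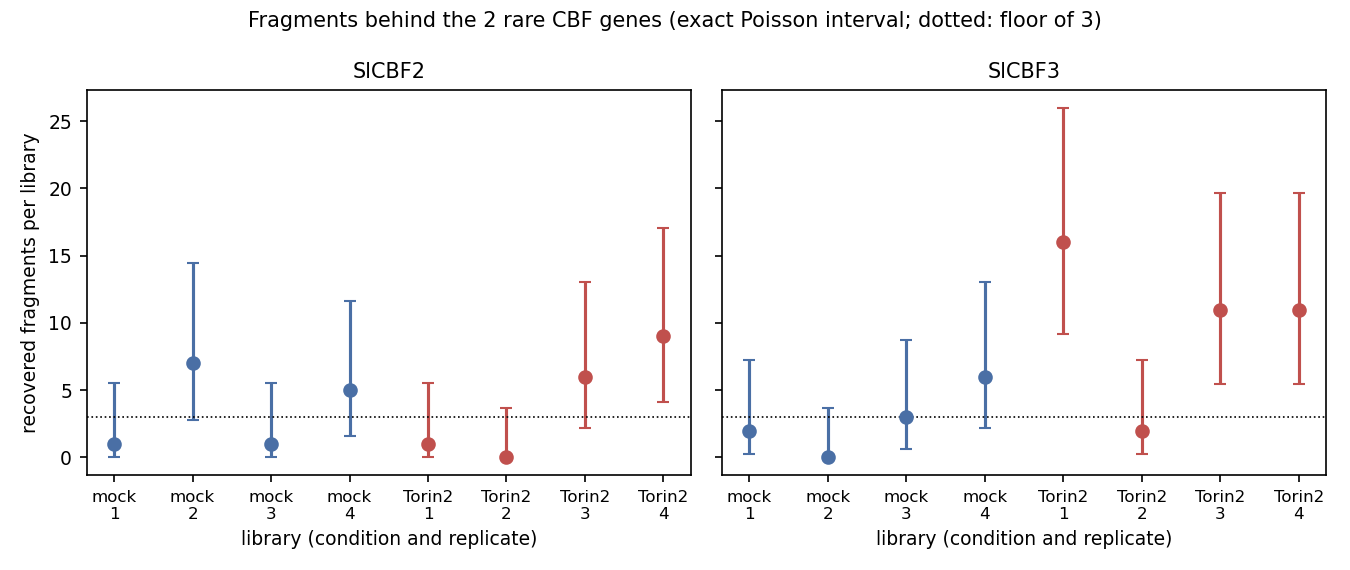
Recovered fragments (y axis) of *SlCBF2* and *SlCBF3* in each library with the exact 95% Poisson interval, which covers counting error only, and a dotted line at the floor of 3 fragments. *SlCBF3* has 11 to 16 fragments in 3 Torin2 libraries and 2 in the fourth, against 0 to 6 in mock, and *SlCBF2* has 0 to 9 fragments with no separation of the conditions.

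Because *SlCBF1* far exceeded its relatives, it made up most of the CBF transcripts in every library. Its share of the summed CBF FPKM was 95.0%, 92.4%, 95.7% and 88.0% in mock replicates 1 to 4 and 93.3%, 98.1%, 90.7% and 87.5% in Torin2 replicates 1 to 4. The 2 conditions covered much the same range. *SlCBF3* held 0% to 7.52% of the sum in mock and 1.92% to 7.89% in Torin2, and *SlCBF2* held 0.819% to 7.60% and 0% to 4.60%. The log2 ratio of *SlCBF3* to *SlCBF1* differed by 0.11 between Torin2 and mock (exact two-sided permutation test over 70 assignments, p = 0.771, adjusted over 4 ratios 0.771). That of *SlCBF2* to *SlCBF1* was 1.11 lower in the mean of the Torin2 libraries, with overlapping ranges (exact permutation p = 0.171, adjusted over 4 ratios 0.4). An unequal change of the CBF genes was therefore not shown, and with 4 libraries against 4 the smallest p that this test allows is 0.0286. Neither ratio rests on many fragments. With a pseudocount of 0.01 FPKM the first was 1.04 and the second -1.49 (exact permutation p = 0.457 and 0.343). The size of the first thus follows the pseudocount, and an equal change was not shown either. With a pseudocount of 1 FPKM the first turned to -0.60 and the second was -0.92 (exact permutation p = 0.0286 each). That pseudocount exceeds every value of *SlCBF2* and *SlCBF3*, so that both ratios then mostly repeat the change of *SlCBF1* and show no unequal change.

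The *SlICE1* gene on chromosome 6, a homologue of the upstream activator of CBF genes, was expressed in every library but did not pass the test. It was at 34.4, 32.3, 20.3 and 29.5 FPKM in mock replicates 1 to 4 and at 20.7, 50.9, 25.7 and 43.6 FPKM in Torin2 replicates 1 to 4. Torin2 replicates 2 and 4 were the highest libraries, mock replicate 3 and Torin2 replicate 1 were the lowest, and the conditions overlapped. The log2 fold change was 0.21 ± 0.29 (SE), with a 95% interval of -0.41 to 0.82 (adjusted p = 0.678, limma with Benjamini-Hochberg adjustment). Precision was set by the spread between libraries and not by depth, as each library held between 1615 and 3889 fragments of this gene. The SE of 0.29 on the deposited scale was 0.19 with median-of-ratios scaling and 0.14 with the length trend removed. Without Torin2 replicate 2 the log2 fold change was -0.0018, and with any other library left out it was above 0.

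The *SlICE1* gene on chromosome 3 was less abundant and likewise did not pass. It was at 4.97, 3.05, 2.17 and 2.88 FPKM in mock replicates 1 to 4 and at 1.71, 6.08, 2.98 and 3.22 FPKM in Torin2 replicates 1 to 4. The lowest and the highest library were both Torin2 libraries, replicates 1 and 2. The log2 fold change was 0.02 ± 0.37 (SE), with a 95% interval of -0.76 to 0.80 (adjusted p = 0.978, limma with Benjamini-Hochberg adjustment). Its sign followed the scaling, at -0.14 with median-of-ratios scaling, -0.24 with quantile normalization and -0.17 once the dependence on gene length was taken out of each library (length trend removed).

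On the deposited scale, both *SlICE1* genes followed the set of the library rather than the treatment. The gene on chromosome 6 ranged from 32.3 to 50.9 FPKM in the first set and from 20.3 to 29.5 FPKM in the second, and the gene on chromosome 3 from 3.05 to 6.08 and from 1.71 to 2.98 FPKM. The sets did not overlap for either gene, with a level lower in the second set by 0.74 and 0.78 on the log2 scale, whereas *SlCBF1* and *SlCBF3* were higher in the second set. The sets come from a component of these same values, so that this is a description with no test. Median-of-ratios factors, which are larger where most genes read higher, were 1.04 to 1.27 in the first set and 0.797 to 0.957 in the second. Part of the lower level in the second set is thus shared by a typical gene and is not particular to the *SlICE1* genes. Within the first set the chromosome 6 gene went from 33.3 FPKM in mock to 47.2 FPKM in Torin2, and within the second set from 24.9 to 23.2 FPKM. For the chromosome 3 gene the log2 difference between Torin2 and mock was 0.18 in the first set and -0.14 in the second. Neither gene thus had a single direction across the sets, and the difference between the sets was not tested.

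The proportion between the *SlICE1* genes was steadier than either level. The chromosome 6 gene held 87.4% to 91.4% of their summed FPKM in mock and 89.3% to 93.1% in Torin2, and was 6.93 to 10.6-fold and 8.38 to 13.5-fold above the chromosome 3 gene. The log2 ratio of the genes differed by 0.19 between Torin2 and mock (exact permutation p = 0.429, adjusted over 4 ratios 0.571), within the spread of the replicates.

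Set against each other, the summed *SlICE1* level exceeded the summed CBF level in every library. The excess was 17.2, 13.1, 6.35 and 9.91-fold in mock replicates 1 to 4 and 2.21, 12.9, 4.01 and 8.06-fold in Torin2 replicates 1 to 4. Torin2 replicate 2, with the highest *SlICE1* and the lowest CBF sum of its condition, fell among the mock libraries, as did Torin2 replicate 4, and Torin2 replicate 1 had the smallest excess. The log2 ratio of the CBF sum to the *SlICE1* sum was 0.96 higher in the Torin2 mean (exact permutation p = 0.2, adjusted over 4 ratios 0.4). The difference was larger than the SD of the mock libraries (0.60) and smaller than that of the Torin2 libraries (1.11), and the ranges overlapped. Thus *SlCBF1* passed the test and the *SlICE1* genes did not, but a difference between their responses was not shown.

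**Figure D4:**
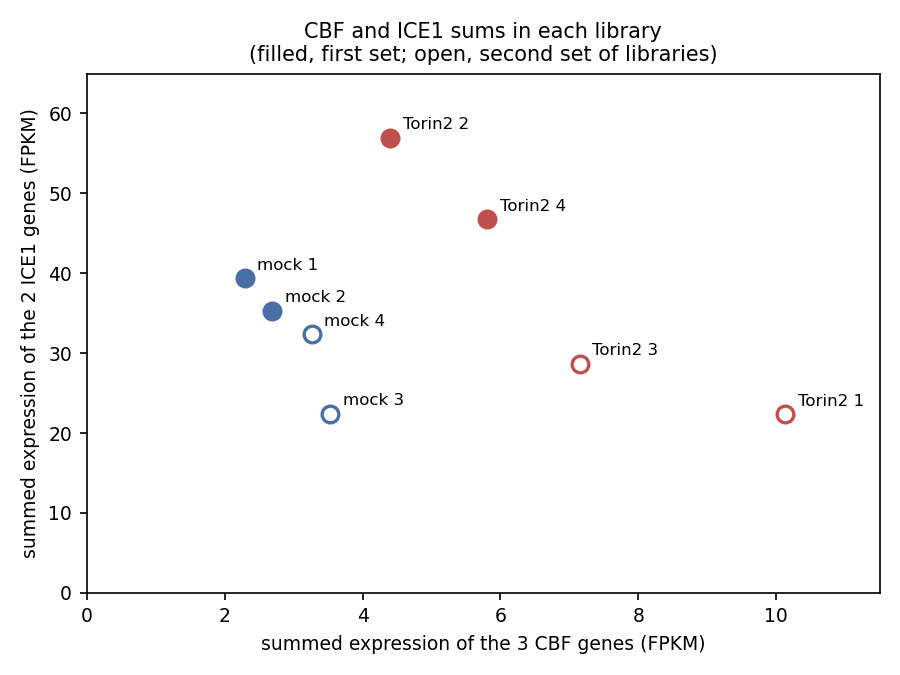
Summed FPKM of the 3 CBF genes (x axis) against the summed FPKM of the 2 *SlICE1* genes (y axis) in each library, filled for the first and open for the second set. Torin2 libraries lie to the right of all mock libraries (4.40 to 10.1 against 2.29 to 3.53 FPKM), and within each condition the libraries of the second set lie lower and further to the right.

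Other genes of the pathway could be named where the study's list of changed genes, which was drawn up on these same libraries, describes them, so that their counts are not independent evidence of a direction. Of 2 such genes described as DREB proteins, the wider family to which CBF proteins belong, 1 passed both cut-offs. This was *DREB3* (Solyc06g066540), which went from 2.66 ± 0.85 FPKM in mock to 6.27 ± 2.52 FPKM in Torin2 (SD, n = 4, log2 fold change 1.17, adjusted p = 0.0286, limma with Benjamini-Hochberg adjustment). *DREB1F* (Solyc08g007830) gave 1 fragment in the 4 mock libraries together and 21 in the 4 Torin2 libraries, and missed the threshold (adjusted p = 0.0551, limma). Its mean was 0.00915 FPKM in mock and 0.197 FPKM in Torin2, so that it met the filter at a mean of 0.1 FPKM only through the Torin2 libraries. With median-of-ratios scaling the calls were exchanged, as *DREB3* no longer passed (log2 fold change 1.02, adjusted p = 0.0949, limma) and *DREB1F* did (1.31, adjusted p = 0.0363, limma). No gene of that list was described as a relative of ICE1.

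Among regulators that act on or beside CBF genes, *SlCAMTA3* and *SlZAT10* rose. The study named both from the genes induced by Torin2 in these same libraries, so that their rise follows from that choice and is no independent evidence. Regulators outside the study's text and its list of changed genes could not be named. *SlCAMTA3* (Solyc04g056270) encodes a calmodulin-binding transcription activator, a family that binds a CBF promoter in *Arabidopsis*, and went from 7.75 to 21.3 FPKM (log2 fold change 1.44, adjusted p = 0.00147, limma), and the log2 fold change was 0.93 with the length trend removed. *SlZAT10* (Solyc01g107170), a zinc finger repressor of the cold and drought response, went from 8.09 to 36.1 FPKM (log2 fold change 2.12, adjusted p = 4.06e-05, limma). *ZAT11* (Solyc06g075775), described as a ZAT12 protein, was at 0.701 FPKM in mock and 2.78 FPKM in Torin2 and did not pass (adjusted p = 0.0514, limma). *SlPGH1* (Solyc09g009020), an enolase of glycolysis whose *Arabidopsis* homologue binds the promoter of *ZAT10*, fell from 183 to 88.1 FPKM (log2 fold change -1.10, adjusted p = 0.0165, limma). The study reports more *SlPGH1* transcript under Torin2 in the cold, a condition that no library here covers. It also proposes that TOR acts on *SlCBF1* expression through the SlPGH1 protein, which was not tested here. Of genes matched by words for cold-regulated products, a raffinose synthase gene (*RFS*, Solyc02g086530) was the 1 gene that could be named. It rose from 0.0558 to 0.388 FPKM (log2 fold change 1.55, adjusted p = 0.0299, limma), with 23 fragments in mock and 158 in Torin2. Its mock mean was below 0.1 FPKM, so that it met the filter on the mean of all libraries only through the Torin2 libraries. *RFS* came from the list of genes changed in these same libraries, so that its rise is no independent evidence. The call on *RFS* was lost with the length trend removed (1.19, adjusted p = 0.0599, limma).

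The kinase gene itself, *SlTOR* (Solyc01g106770), was at 1.88 FPKM in mock and 4.19 FPKM in Torin2. Its log2 fold change of 1.14 (adjusted p = 0.0180, limma) became 0.45 with the length trend removed, and 0.98 with median-of-ratios scaling, both below the fold change cut-off. *SlACTIN7* (Solyc03g078400), which the study used as the internal standard of RT-qPCR, was at 371 ± 104 FPKM in mock and 299 ± 66.9 FPKM in Torin2 (SD, n = 4, log2 fold change -0.29, adjusted p = 0.438, limma). Its log2 fold change was -0.45 with median-of-ratios scaling (adjusted p = 0.103, limma) and -0.59 with the length trend removed (adjusted p = 0.00467, limma). Relative to *SlACTIN7* the log2 difference of *SlCBF1* was 1.43, a value without a test from a scaling chosen after seeing the data. That value contains the lower mean of *SlACTIN7* under Torin2. Of the genes in the study's list, 3 were taken as root markers by the words of their descriptions, *NRT3.2* and 2 Casparian strip membrane protein genes (Solyc02g067190 and Solyc09g010200). Of these, 3 of 3 passed both cut-offs as falls, with log2 fold changes of -1.25, -1.87 and -1.11. Among all 22330 genes tested, 671 passed as falls, and 8.32% passed in either direction. The summed level of the 3 root markers follows. It was 154 to 181 FPKM in mock and 60.3 to 82.9 FPKM in Torin2, and Solyc02g067190 was at 0 to 0.237 FPKM in the Torin2 libraries. The Rubisco small chain gene had a log2 fold change of -0.71 (adjusted p = 0.274, limma). These markers come from a list of genes chosen as changed in these libraries, so that their count is no evidence of a shift, and the part of any shift in tissue in the level of the CBF and *SlICE1* genes was not tested.

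The genes next to the *SlCBF3* and *SlCBF1* pair on chromosome 3 were read from the same fit. Of the 5 identifiers on each side, 9 were tested and 0 passed both cut-offs with limma, nor did any by limma-voom on whole fragments, while 2 had a p below 0.05 before adjustment. With 8.32% of all genes tested past both cut-offs, a count of 0 among 9 is near the background and says nothing particular about these genes. Their median log2 fold change was 0.33, beside 0.16 over all genes tested. The largest among them was 0.69 for Solyc03g026320 (adjusted p = 0.0641, limma), below the 1.14 of *SlCBF1* and the 1.25 of *SlCBF3*.

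Likeness of pattern was measured as the root mean square difference of the log2 values over the 8 libraries, each gene centred on its own mean, so that a smaller value means a closer match. *SlCBF1* was matched most closely by *SAP7* (Solyc08g079700, 0.0982), a stress-associated zinc finger protein with A20 and AN1 domains, by *ATG8F* (Solyc08g007400, 0.105), an autophagy gene, and by an ankyrin repeat gene (Solyc02g068615, 0.124). Its difference to *SlCBF3* was 0.548, and to the *SlICE1* genes 0.891 on chromosome 6 and 1.02 on chromosome 3. The *SlICE1* genes differed from each other by 0.278. Their closest matches were Solyc07g066010 (0.0450), Solyc10g083210 and Solyc08g077520 for the gene on chromosome 6, and Solyc12g006470 (0.161), Solyc02g161340 and Solyc02g022900 for that on chromosome 3, which carry no name in the sources used here. For the rare genes the matches were looser, with Solyc03g020050 (0.287), Solyc06g075040 and Solyc07g054810 closest to *SlCBF3*, and Solyc03g026230 (0.409), Solyc10g083430 and Solyc01g104740 closest to *SlCBF2*. The closest match of *SlCBF2* is itself one of the genes beside the pair of *SlCBF3* and *SlCBF1*, whereas *SlCBF2* lies elsewhere on the chromosome. *SlCBF2* gave few fragments, and its next matches were nearly as close (0.426 and 0.440), so that no link is shown.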

How the data were processed

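RNA-seq libraries from 8 samples of entire seedlings, 4 mock and 4 Torin2, were grouped by their GEO labels, and the time of 2 h is taken from the study's methods. Paired-end reads (150 bp) were mapped by the authors with HISAT2 against the SL4.0 tomato genome, and gene expression was deposited as FPKM. The submitters' processing notes also name fastp, FastQC, SAMtools and HTSeq. Their versions, the annotation release and the treatment of reads that match several genes are not given in the sources used here, so that fragments of near-identical gene copies remain uncertain.

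The fragments behind each deposited FPKM value were recovered as whole numbers (100% of positive values within 0.05 fragments), with a total of 99.7% to 99.8% of the depth. Differential expression was tested with limma 3.58.1 in R 4.3.3 (lmFit, eBayes with trend), using log2(FPKM + 0.1), for 22330 genes whose mean reached 0.1 FPKM. Benjamini-Hochberg adjustment covered all these genes. A call needed an adjusted p below 0.05 and a log2 fold change beyond 1 in either direction, as in the study. Ratios were compared by exact two-sided permutation tests, and Python 3.11.15 with scipy 1.17.1 was used for these tests and for intervals of 95%. The code was tested on simulated data. The reads carry no molecular identifiers and are not independent molecules, so that intervals and floors describe counting error alone.

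The members and gene lists were chosen with earlier results of these data known. The names of *SlCBF2*, *SlCBF3* and the *SlICE1* genes are those in general use and are not part of the deposited table. The other named genes are those the study's text or primer table gives and matches of fixed words in the descriptions of its list of changed genes, since no other source used here described the identifiers. From each such list at most 3 rises and 3 falls that passed both cut-offs and averaged 1 FPKM or more were to be named. *DREB1F*, *ZAT11*, *RFS* and the tissue markers lie outside that rule and were named after their values were seen. The 5 identifiers on each side of the *SlCBF3* and *SlCBF1* pair and the 3 genes most like each member, among genes that averaged 1 FPKM or more, were added by rule.

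The alternatives included scaling by median-of-ratios, to TPM or by quantiles, pseudocounts of 0.01 and 1 FPKM, a stricter filter (mean of 1 FPKM) and none, other variance models, the replicate number as a block, the set of the library as a covariate or alone, each library left out in turn, no fold change cut-off, the length trend of each library removed by loess (span 0.3), and limma-voom on recovered fragments. Scaling to *SlACTIN7* was added after seeing the data. No sequence of the genes, promoters or proteins was used.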

Additional observations from a re-analysis of the deposited data

How the results depend on the processing

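The 4 mock and 4 Torin2 libraries and the low counts of *SlCBF2* and *SlCBF3* limit these results. The log2 fold change of *SlCBF1* was above 0 in every refit and passed both cut-offs in 14 of 21 refits with limma. It no longer passed with a pseudocount of 1 FPKM (0.94, below the fold change cut-off, adjusted p = 0.0237), median-of-ratios scaling (0.98) or quantile normalization (0.91), and ran from 0.93 to 1.30 with 1 library left out, where 4 of 8 refits passed. That of *SlCBF3* passed in 2 of 20 refits, with the set of the library as a covariate (1.25) and without Torin2 replicate 2, and ran from 0.93 to 1.69 with 1 library left out. The refit with the set as a covariate is counted as a pass for both genes, although the set was defined from these same values and its p tends to be too small. *SlCBF2* changed sign with a pseudocount of 0.01 FPKM (-0.32), median-of-ratios scaling (-0.017), quantile normalization (-0.13) and limma-voom on recovered fragments (-0.22), and ran from -0.28 to 0.34 with 1 library left out. The *SlICE1* gene on chromosome 3 changed sign with median-of-ratios scaling (-0.14), quantile normalization (-0.24) and the length trend removed (-0.17), and ran from -0.28 to 0.31 with 1 library left out. The *SlICE1* gene on chromosome 6 ran from -0.0018 to 0.43. With a pseudocount of 1 FPKM the log2 ratio of *SlCBF2* to *SlCBF1* was -0.92 and reached the smallest exact permutation p of 0.0286, and that of *SlCBF3* to *SlCBF1* was -0.60. The latter ran from -0.17 to 0.39 with 1 library left out. With a pseudocount of 0.01 FPKM it was 1.04, and the log2 ratio of *SlCBF2* to *SlCBF1* was -1.49. With a pseudocount of 1 FPKM the log2 fold changes were 0.02 for *SlCBF2*, 0.34 for *SlCBF3* and 0.94 for *SlCBF1*. Both ratios with 1 FPKM thus mostly repeat the change of *SlCBF1*. The cause of the other shifts was not tested. *SlCBF2* and *SlCBF3* gave no value with a filter at a mean of 1 FPKM, which leaves them out.

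Over all genes tested, the median log2 fold change was 0.16 as deposited, 0.01 with median-of-ratios scaling and 0.02 with quantile normalization. The share of rises among called genes was 63.9%, and 43.2%, 44.1% and 45.7% with median-of-ratios scaling, quantile normalization and the length trend removed. The count of called genes was 1857, and 1086 with a pseudocount of 1 FPKM. With 1 library left out it ran from 1153 to 2183.

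Same-numbered mock and Torin2 libraries are not described as pairs. Their deviations from the condition means correlated at -0.38, 0.38, 0.40 and -0.25 for replicate numbers 1 to 4. With the replicate number as a block no call on the 5 genes changed (*SlCBF1* 1.14, adjusted p = 0.0258, and *SlCBF3* 1.25, adjusted p = 0.0772, limma with Benjamini-Hochberg adjustment), and 1909 genes were called.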
